A study of Homo sapiens with 12 samples.

Results

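The 10 genes described here control the passage of a cell from G1 into S phase: the E-type cyclins CCNE1 and CCNE2, the D-type cyclins CCND1 and CCND3, the kinases CDK2, CDK4 and CDK6, the phosphatase CDC25A, and the transcription factors E2F1 and MYBL2. They were taken by gene symbol, and all 10 were listed both among the 11554 genes of the SW48 table and among the 11070 genes of the 23132/87 table, of 12372 genes in all. SW48 is an established colorectal adenocarcinoma line and 23132/87 an established gastric adenocarcinoma line, each given as wild type. The groups were SW48 cells with 10 µM myricone C for 48 h, SW48 cells with vehicle (0.1% DMSO) for 48 h, 23132/87 cells with 10 µM myricone C for 48 h, and 23132/87 cells with vehicle for 48 h, with 3 libraries each. Myricone C is a neolignan of nutmeg, Myristica fragrans, and the study was set up around its action on gastric and colorectal cancer cells. The labels speak of biological replicates without naming separate cultures or days, so p-values measure the spread between these libraries.

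As background, D-type cyclins bind CDK4 and CDK6, and these complexes phosphorylate the retinoblastoma protein, which otherwise holds E2F factors inactive. Freed E2F1 drives genes for entry into S phase, among them cyclin E, CDC25A and MYBL2, and cyclin E with CDK2 then phosphorylates the same protein further. CDC25A removes the inhibitory phosphates from CDK2. MYBL2, a MYB family factor, joins the MuvB complex and helps switch on genes of late S phase and mitosis. In gastric and colorectal cancers, cyclin D1 and cyclin E are known for their amplification or high expression.

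The deposited values are an expression signal that resembles FPKM or TPM, and fold changes were computed on log2(signal + 1) and tested with limma, with p-values adjusted by Benjamini-Hochberg over all genes of a table. The RNA came from whole cultures, so fewer cells in a cell cycle phase and less RNA per cell cannot be told apart. Read depth is unknown, and the values of a library summed to between 464037 and 536594. A gene is listed when it reaches about 1 in all 6 libraries of its line, so members near 1 lie at the edge of what the tables hold. All 7 general epithelial markers examined were listed in both lines, and none of the leukocyte or endothelial markers. Among colorectal markers, CDX2 and CDH17 were listed in SW48, and CDX1 and VIL1 were not. Of 5 gastric markers TFF1 alone was listed in 23132/87, and CLDN18, TFF2, MUC5AC and GKN1 were not, while the colorectal markers CDX2, VIL1 and CDH17 were listed and CDX1 was not. Of 5 mesenchymal markers COL1A1 alone was listed, in 23132/87. One library stood apart: SW48 myricone C replicate 1 lay at 14.4 on the leading principal component against 36.5 and 29.1 for its partners, and genes of 7SL and small nuclear RNA made up 5.26% of its summed signal, compared with 0.049% to 0.204% for its fellow libraries of that line. Changes in SW48 are also given without it.

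Promoter sequence is shown for members that moved together and for CDK4, which was not called. RefSeq promoter windows of 300 bases (250 before to 50 after a start site, GRCh38.p14) were found for 7 members in 10 windows; CCNE2, CCND1 and CDK2 had none in the table. The letters TTTNNCGC, a form of the E2F site, were searched on both strands, as was the shorter core TTGGCG, which can lie inside it. TTTNNCGC occurred in the windows of E2F1 and CDC25A, against 6.89% of 35116 windows in the table, and TTGGCG in those of E2F1, CDC25A and MYBL2, against 8.92%. The windows of CCNE1, CCND3, CDK4 and CDK6 held neither form, and TTTGAA, a form of the cell cycle homology region, was in no member's window, against 15.2% of all. E2F1 held 4 matches of TTTNNCGC, whose first bases lay at -122, -33, -20 and -14 from the start, and the last 2 of these overlap. The motifs were chosen after the sequences were seen. The 100 bases upstream of the start follow, 5′ to 3′ on the gene's strand, with matched bases in capitals. They cover chr20:33686386-33686485 (minus strand), chr3:48188418-48188517 (minus strand), chr20:43667014-43667113 (plus strand), chr19:29811891-29811990 (plus strand) and chr12:57752311-57752410 (minus strand).
E2F1: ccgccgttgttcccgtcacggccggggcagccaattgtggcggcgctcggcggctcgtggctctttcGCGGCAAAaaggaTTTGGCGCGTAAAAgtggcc
CDC25A: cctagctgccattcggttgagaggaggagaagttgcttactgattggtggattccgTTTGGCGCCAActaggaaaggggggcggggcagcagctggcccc
MYBL2: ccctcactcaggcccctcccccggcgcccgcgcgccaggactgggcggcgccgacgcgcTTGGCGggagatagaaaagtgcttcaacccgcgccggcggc
CCNE1: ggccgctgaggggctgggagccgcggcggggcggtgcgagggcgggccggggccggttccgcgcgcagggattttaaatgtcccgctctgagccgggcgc
CDK4: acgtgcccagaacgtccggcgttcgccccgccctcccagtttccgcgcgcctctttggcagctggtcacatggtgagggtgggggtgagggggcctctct
The capitals mark letters only, and the E2F1 match at -122 lies outside the stretch shown. CCNE1, which fell in both lines, had no match in its window, and MYBL2 had a single TTGGCG at -41.

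In both lines most of these regulators were lower with myricone C. The change differed between the lines for 6 of them, with the lower log2 change in 23132/87. In SW48, 7 of the 10 fell and none rose at adjusted p under 0.05, in a table where 19.2% of genes fell and 10.1% rose. In 23132/87, 9 of the 10 fell and none rose, where 23.2% of genes fell and 23.3% rose. CCNE1, CCNE2, CCND3, CDK2, E2F1, MYBL2 and CDC25A fell in both lines, 7 of 10, against 12% of the 10252 genes in both tables. CDK6 and CCND1 were not called in SW48 and fell in 23132/87, and CDK4 was called in neither line. The median log2 change of the members was -0.65 in SW48 and -1.60 in 23132/87, beside -0.08 and 0.01 for all genes tested. Without SW48 myricone C replicate 1 the count in SW48 was 7 as well.

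Each of the 3 myricone C libraries lay below each vehicle library for 7 members in SW48 and for 10 in 23132/87. That held for 28.4% of all genes in SW48 and for 27.9% in 23132/87. The plot of signal by library shows the 12 values of each member.

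**Figure D1:**
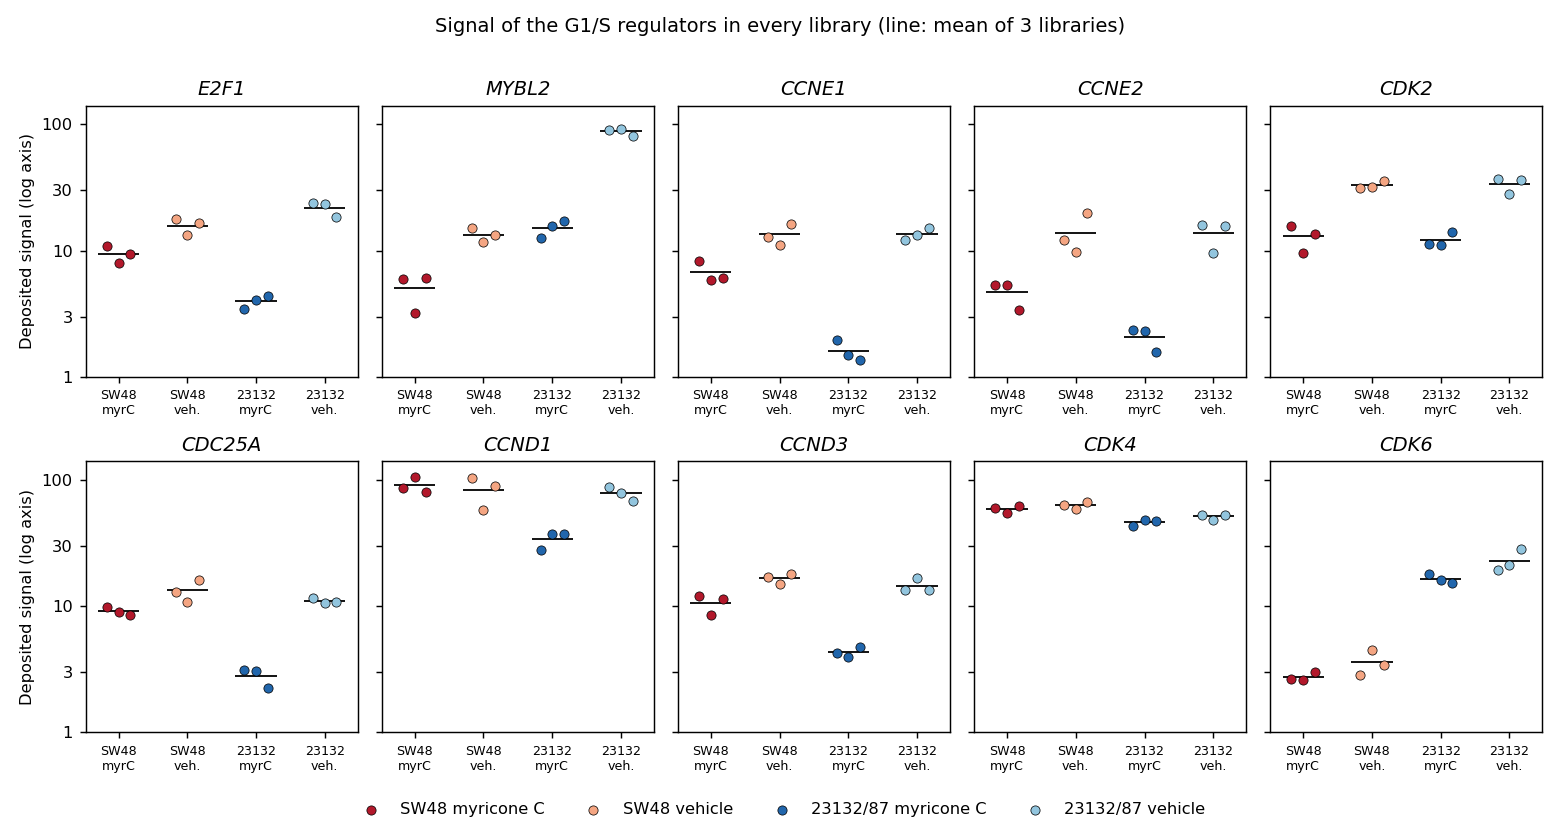
Deposited signal of each of the 10 genes (log axis) in the 3 libraries of each group, with the group mean as a line; columns run SW48 myricone C, SW48 vehicle, 23132/87 myricone C and 23132/87 vehicle. The 3 myricone C points of CCNE1 in 23132/87 sit between 1.36 and 1.94, below the 12.2 to 15.0 of vehicle, while those of CDK4 sit close to vehicle in both lines.

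E2F1, the activator E2F of the set, had signals of 10.9, 7.93 and 9.40 in SW48 myricone C cells, against 17.8, 13.2 and 16.4 in SW48 vehicle cells. In 23132/87 it had 3.42, 4.09 and 4.37 with myricone C, against 23.7, 23.2 and 18.4 with vehicle. The groups did not overlap in either line, and the 23132/87 treated libraries were the lowest of all 12. The group mean was 1.68-fold lower with myricone C in SW48, a log2 change of -0.69 ± 0.15 (SE, n = 3 per group, limma adjusted p = 0.00689), and 5.50-fold lower in 23132/87, a log2 change of -2.20 ± 0.14 (limma adjusted p = 3.92e-06). Without SW48 myricone C replicate 1 the SW48 change was -0.79.

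MYBL2 had signals of 5.93, 3.20 and 6.05 in SW48 myricone C cells, against 15.1, 11.7 and 13.3 in SW48 vehicle cells. In 23132/87 its signals were 12.5, 15.8 and 17.3 with myricone C, against 90.3, 92.8 and 81.1 with vehicle. The treated 23132/87 libraries thus stood near the level of SW48 vehicle cells, in tables that were made and filtered separately. The change was -1.27 ± 0.20 on the log2 scale in SW48 (SE, limma adjusted p = 0.00102; -1.39 without myricone C replicate 1) and -2.47 ± 0.12 in 23132/87 (limma adjusted p = 1.82e-06). Among 11070 genes of 23132/87 ordered by log2 change, the fall of CCNE1 was number 2, that of MYBL2 number 3, that of CCNE2 number 12 and that of E2F1 number 17. In SW48, CCNE2 was number 51, CDK2 number 63 and MYBL2 number 70 of 11554. These orders hold listed genes only and rest on log2(signal + 1), which weighs on low genes. With a pseudocount of 5, CCNE1 and CCNE2 in 23132/87 were at -1.48 and -1.39, and the order was not taken again.

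The balance of MYBL2 to E2F1 was taken within each library. In SW48 the ratio of MYBL2 to E2F1 was 0.531 ± 0.121 with myricone C and 0.848 ± 0.0396 with vehicle (SD, n = 3), and these ranges did not overlap. In 23132/87 the ratio was 3.83 ± 0.150 with myricone C and 4.07 ± 0.305 with vehicle, and these ranges overlapped. Ratios between members are descriptions and were not tested.

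CCNE1, the cyclin E1 gene on chromosome 19 (29811898 to 29824308, GRCh38), had signals of 8.23, 5.88 and 6.07 in SW48 myricone C cells, against 12.9, 11.2 and 16.3 in SW48 vehicle cells. In 23132/87 it had 1.94, 1.49 and 1.36 with myricone C, against 12.2, 13.2 and 15.0 with vehicle. Vehicle levels were alike in the separately made tables, at 13.4 ± 2.60 in SW48 and 13.5 ± 1.41 in 23132/87 (SD, n = 3), and the treated levels were not. The fall was 2.00-fold in SW48 (log2 change -0.90 ± 0.17, limma adjusted p = 0.00285; -1.03 without myricone C replicate 1). In 23132/87 it was 8.43-fold (log2 change -2.48 ± 0.14, limma adjusted p = 3.03e-06), and the treated level lay close to the lowest value the tables hold.

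CCNE2, the cyclin E2 gene, had signals of 5.38, 5.30 and 3.38 in SW48 myricone C cells, against 12.1, 9.83 and 19.7 in SW48 vehicle cells. In 23132/87 CCNE2 had 2.34, 2.30 and 1.56 with myricone C, against 16.0, 9.52 and 15.7 with vehicle. No treated library reached a vehicle library, although vehicle libraries of each line differed among themselves. The log2 change was -1.35 ± 0.23 in SW48 (SE, limma adjusted p = 0.00165; -1.45 without myricone C replicate 1) and -2.24 ± 0.20 in 23132/87 (limma adjusted p = 2.50e-05). In GENCODE release 29, 37.0% of the exon bases of CCNE2 are shared with INTS8 on the other strand, and whether strand was used in counting is not given in the sources used here. INTS8 had mean signals of 8.72 in treated and 10.8 in vehicle SW48 cells, and of 18.4 in treated and 18.6 in vehicle 23132/87 cells.

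CDK2, the catalytic partner of cyclin E, had signals of 15.7, 9.59 and 13.7 in SW48 myricone C cells, against 31.6, 31.7 and 35.6 in SW48 vehicle cells. In 23132/87 they were 11.2, 11.1 and 14.0 with myricone C, against 36.7, 27.9 and 36.1 with vehicle. Treated levels, like vehicle levels, were close between the lines. The fall was 2.54-fold in SW48 (log2 change -1.30 ± 0.16, limma adjusted p = 0.000339; -1.45 without myricone C replicate 1) and 2.78-fold in 23132/87 (log2 change -1.40 ± 0.14, limma adjusted p = 4.53e-05). Relative to CDK4, CDK2 stood at 0.221 ± 0.0442 with myricone C and 0.524 ± 0.0193 with vehicle in SW48, and at 0.263 ± 0.0322 with myricone C and 0.653 ± 0.0649 with vehicle in 23132/87 (SD, n = 3).

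CDC25A, the phosphatase that activates CDK2, had signals of 9.87, 8.97 and 8.45 in SW48 myricone C cells, against 13.0, 10.8 and 16.1 in SW48 vehicle cells. In 23132/87 the signals were 3.12, 3.05 and 2.25 with myricone C, against 11.5, 10.5 and 10.7 with vehicle. The gap was narrow in SW48, where the highest treated and the lowest vehicle library were 9.87 and 10.8, and wide in 23132/87. The log2 change was -0.49 ± 0.16 in SW48 (SE, limma adjusted p = 0.0358) and -1.65 ± 0.13 in 23132/87 (limma adjusted p = 1.42e-05). The SW48 call was lost without myricone C replicate 2 (-0.48) or 3 (-0.44), without vehicle replicate 1 (-0.49) or 3 (-0.35), and after quantile (-0.44) or median-centred scaling (-0.44), and held without myricone C replicate 1 (-0.54).

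CCND1, cyclin D1 on chromosome 11, was not called in SW48 and fell in 23132/87. In SW48 it had 86.4, 105 and 79.6 with myricone C, against 104, 57.8 and 89.3 with vehicle, and the groups overlapped. In 23132/87 it had 27.9, 37.1 and 36.9 with myricone C, against 88.1, 79.0 and 68.4 with vehicle, with every treated library well below. The log2 change in SW48 was 0.14 ± 0.19 (SE, 95% interval -0.28 to 0.57, limma adjusted p = 0.621; 0.17 without myricone C replicate 1), and it turned to -0.10 without vehicle replicate 2, the lowest of the vehicle libraries. In 23132/87 the log2 change was -1.19 ± 0.14, a 2.31-fold fall (limma adjusted p = 0.000108).

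CCND3, cyclin D3, fell in both lines. Its signals were 11.9, 8.47 and 11.4 in SW48 myricone C cells, against 16.9, 14.8 and 17.9 in SW48 vehicle cells, a log2 change of -0.61 ± 0.15 (limma adjusted p = 0.0117; -0.69 without myricone C replicate 1). Without vehicle replicate 3 the SW48 value was -0.55 and no longer called. In 23132/87 the signals were 4.23, 3.97 and 4.71 with myricone C, against 13.3, 16.7 and 13.5 with vehicle, a log2 change of -1.54 ± 0.13 (limma adjusted p = 1.85e-05). The signal of CCND1 relative to CCND3 was 8.89 ± 3.09 with myricone C and 5.02 ± 1.14 with vehicle in SW48, and 7.92 ± 1.38 with myricone C and 5.47 ± 1.01 with vehicle in 23132/87 (SD, n = 3). The ranges overlapped narrowly in 23132/87, at 6.60 to 9.35 with myricone C and 4.72 to 6.62 with vehicle, and not in SW48, at 6.98 to 12.5 with myricone C and 3.90 to 6.17 with vehicle.

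CDK4, a kinase partner of the D-type cyclins, was not called in either line. Its signals were 59.3, 54.2 and 61.8 in SW48 myricone C cells, against 62.8, 58.7 and 67.3 in SW48 vehicle cells. In 23132/87 they were 42.9, 48.0 and 47.2 with myricone C, against 52.9, 48.3 and 52.6 with vehicle. The log2 change was -0.10 ± 0.11 in SW48 (95% interval -0.35 to 0.14, limma adjusted p = 0.515; -0.12 without myricone C replicate 1) and -0.15 ± 0.09 in 23132/87 (95% interval -0.36 to 0.06, limma adjusted p = 0.204). TSPAN31 on the other strand shares 43.2% of the exon bases of CDK4, and its mean signal was 5.88 in treated and 5.65 in vehicle SW48 cells, and 12.8 in treated and 5.40 in vehicle 23132/87 cells; its part in the CDK4 values was not tested.

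CDK6, the other kinase of the D-type cyclins, had signals of 2.64, 2.57 and 3.01 in SW48 myricone C cells, against 2.83, 4.48 and 3.43 in SW48 vehicle cells. In 23132/87 its signals were 18.0, 16.1 and 15.1 with myricone C, against 19.1, 21.0 and 28.5 with vehicle. Relative to CDK6 the level of CDK4 was far higher in SW48 libraries than in 23132/87 libraries, in tables that were not tested against each other. CDK4 exceeded CDK6 21.4 ± 1.00 times with myricone C and 18.3 ± 4.68 times with vehicle in SW48, and 2.83 ± 0.386 times with myricone C and 2.31 ± 0.460 times with vehicle in 23132/87 (SD, n = 3). The log2 change was -0.28 ± 0.16 in SW48 (95% interval -0.64 to 0.08, limma adjusted p = 0.224; -0.26 without myricone C replicate 1) and -0.44 ± 0.15 in 23132/87 (limma adjusted p = 0.0337). The 23132/87 call was lost without myricone C replicate 2 (-0.43) or 3 (-0.38) and without vehicle replicate 2 (-0.49) or 3 (-0.28).

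Levels were also ordered within each group. In 23132/87 myricone C cells CDK4 led, CCND1 came next without overlap, and CDK6, MYBL2 and CDK2 followed, each overlapping its neighbour, with CCNE1 lowest and overlapping CCNE2. In 23132/87 vehicle cells MYBL2 (88.1 ± 6.16) and CCND1 (78.5 ± 9.84) were highest and overlapped, ahead of CDK4 (51.3 ± 2.56; SD, n = 3), while CDC25A was lowest. In SW48, CCND1 and CDK4 led and CDK6 was lowest in treated and vehicle cells alike, and the neighbours from CCND3 down to CDC25A overlapped with vehicle. The deposited signal appears scaled to gene length, which the sources do not state, so orders between genes rest on that scale.

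**Figure D2:**
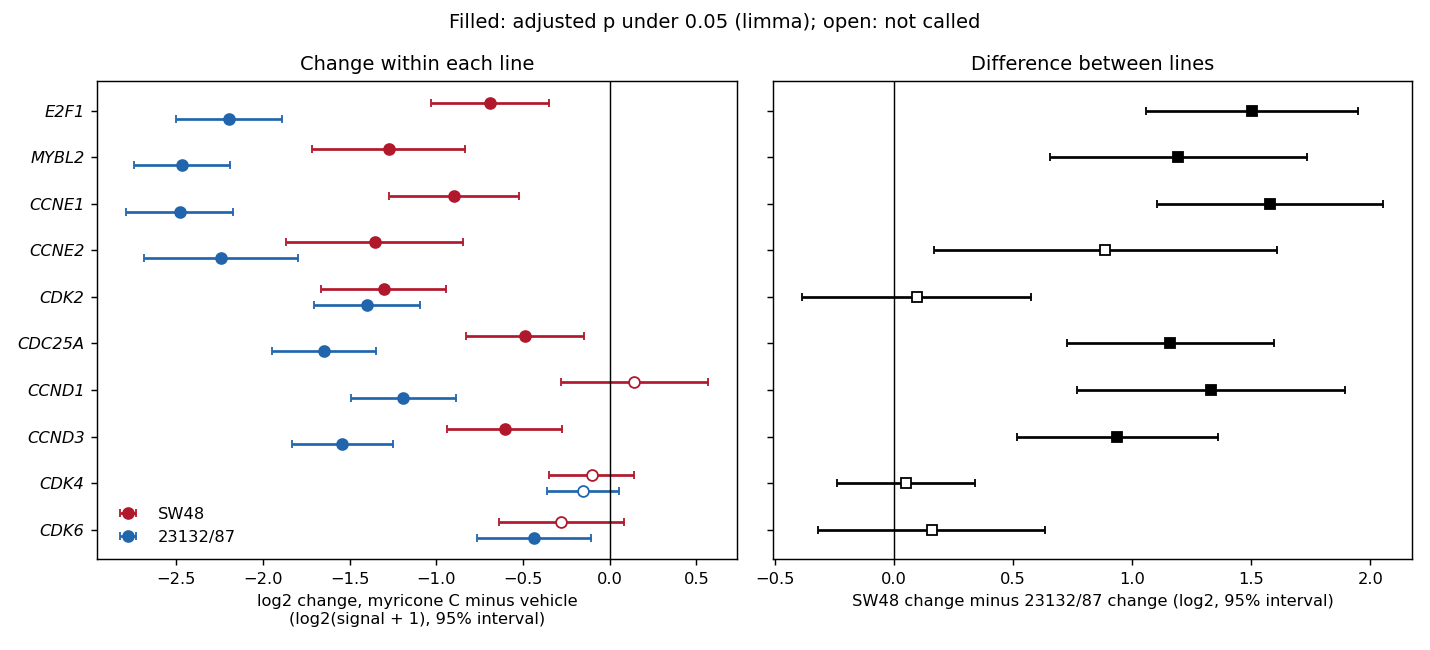
Left, log2 change (myricone C minus vehicle, log2(signal + 1)) of each gene in SW48 and 23132/87 with its 95% interval; right, the SW48 change minus the 23132/87 change with its 95% interval. Filled symbols have an adjusted p under 0.05 (limma); the differences of CDK2, CDK4 and CDK6 lie near 0, and those of the other 7 genes between 0.89 and 1.58.

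The difference between the lines was tested directly, as the line-by-treatment term over 10252 genes. It was positive, meaning a smaller fall or a higher log2 change in SW48, and called for 6 of the 10 members. Over all genes 5.34% had a positive and 7.43% a negative call. No member had a negative call. The SW48 change minus the 23132/87 change was 1.58 ± 0.22 for CCNE1 (SE, limma adjusted p = 0.000653), 1.51 ± 0.21 for E2F1 (adjusted p = 0.000606), 1.33 ± 0.26 for CCND1 (adjusted p = 0.00513) and 1.19 ± 0.25 for MYBL2 (adjusted p = 0.00750). For CDC25A it was 1.16 ± 0.20 (adjusted p = 0.00241) and for CCND3 0.94 ± 0.20 (adjusted p = 0.00735). The CCND3 difference was not called in a fit with the numbers of the column names as a block (0.90, adjusted p = 0.0555).

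CDK2 fell in SW48 and in 23132/87 with a difference of 0.09 ± 0.23 (95% interval -0.39 to 0.58, limma adjusted p = 0.819). The intervals of the difference were -0.24 to 0.34 for CDK4 and -0.32 to 0.64 for CDK6 (adjusted p = 0.847 and 0.677). CCNE2 was at 0.89 ± 0.34 with an interval of 0.17 to 1.61 and was not called (adjusted p = 0.0959), but it was called without SW48 vehicle replicate 3 (1.15) or 23132/87 vehicle replicate 2 (1.11), the vehicle libraries farthest from their partners. With a pseudocount of 5 the difference was smaller and still called for CCNE1 (0.83), CDC25A (0.66) and CCND3 (0.59). Without SW48 myricone C replicate 1 the same number of members, 6, was called.

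**Figure D3:**
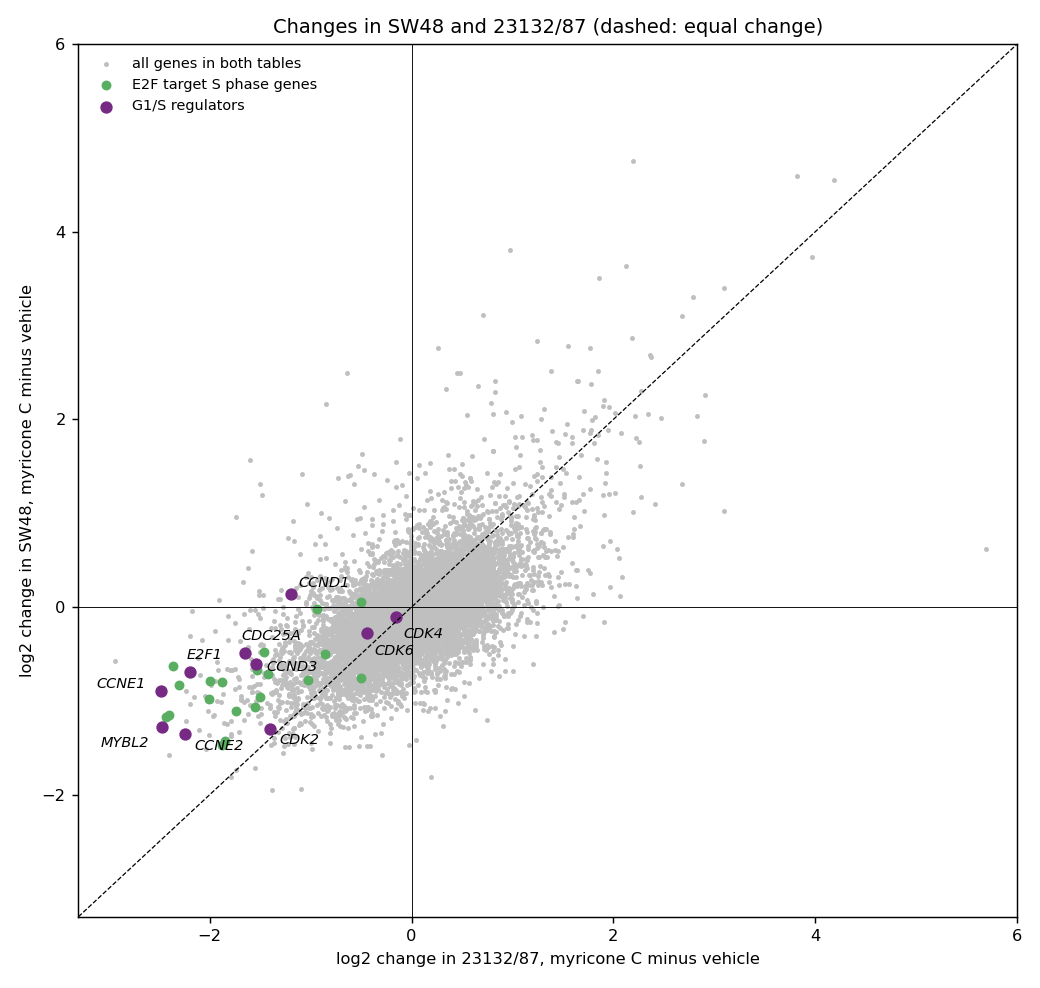
Each point is a gene in both tables, placed by its log2 change in 23132/87 (x) and in SW48 (y), with the G1/S regulators and the E2F target S phase genes marked; the dashed line marks equal change. CDK2, CDK4 and CDK6 lie near the line, CCNE1 (-0.90 in SW48 and -2.48 in 23132/87) lies well above it, and CCND1 is at 0.14 in SW48 and -1.19 in 23132/87.

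The genes whose response was most like that of a member were found by the root mean square difference of log2(signal + 1) over the 12 libraries, after subtracting the vehicle mean of each line. For MYBL2 they were UHRF1 (0.125), MCM5 (0.158) and the small heat shock gene HSPB1 (0.173), where the median over 6543 genes was 1.38. For E2F1 they were MCM3 (0.139), MCM6 (0.140) and TONSL (0.161), with a median of 1.15. For CCNE1 they were MCM4 (0.131), MCM6 (0.220) and MCM5 (0.235), with a median of 1.31. UHRF1 is needed to maintain DNA methylation, the MCM genes encode the replicative helicase, and TONSL acts in repair of stalled forks.

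Of 20 genes of S phase known as E2F targets, 18 fell and none rose in SW48, and all 20 fell in 23132/87, with median log2 changes of -0.79 and -1.64. Over all genes, as for each group that follows, 19.2% fell and 10.1% rose in SW48, and 23.2% fell and 23.3% rose in 23132/87. The largest falls were those of TK1, thymidine kinase (-1.46 ± 0.14), and TYMS, thymidylate synthase (-1.43 ± 0.23), in SW48, and of the helicase subunit MCM5 (-2.43 ± 0.12) and UHRF1 (-2.40 ± 0.15) in 23132/87 (SE). The difference between lines had a positive call for 12 of the 20 and a negative call for none. Without SW48 myricone C replicate 1 the counts were 18 in SW48 and 10 for the difference.

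The partners of E2F1 moved less evenly. Of 12 genes of the pocket proteins, other E2F factors and DP subunits, 5 fell and none rose in SW48. In 23132/87, 6 of 11 fell and 2 rose. The medians were -0.26 and -0.38. TFDP1, the DP subunit that pairs with E2F factors on DNA, was at 53.9 ± 6.74 with myricone C and 89.7 ± 4.17 with vehicle in SW48, and at 37.3 ± 4.56 with myricone C and 78.1 ± 1.67 with vehicle in 23132/87 (SD, n = 3), and fell in both (limma adjusted p = 0.00122 and 5.49e-05). E2F2, another activator E2F, fell by 0.86 in SW48 and by 1.29 in 23132/87 on the log2 scale, E2F8, a repressor E2F, by 1.07 in SW48, and RBL1, which encodes the pocket protein p107, by 1.38 in 23132/87. RB1, the retinoblastoma gene, was at -0.20 ± 0.15 in SW48 (adjusted p = 0.328) and at -0.38 ± 0.14 in 23132/87 (adjusted p = 0.0495), a call that was lost on leaving out any 23132/87 library other than myricone C replicate 1 (values from -0.43 to -0.30). For the difference between lines RBL1 had a positive call (1.06) and RBL2 a negative one (-0.62). The RBL2 call ended when any of 9 single libraries was left out, and after quantile (-0.53) or median-centred scaling (-0.55). It also ended with a block by replicate numbers (-0.62) or by column-name numbers (-0.66).

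Of the listed CDK inhibitors, 1 of 5 rose and 1 fell in SW48, where 10.1% of all genes rose and 19.2% fell. In 23132/87, 2 of 6 rose and 2 fell, where 23.3% of all genes rose and 23.2% fell. Counts this small lie near those shares. Median log2 changes were 0.07 in SW48 and 0.14 in 23132/87. CDKN1A, which encodes the CDK inhibitor p21, was at 211 ± 37.0 with myricone C and 106 ± 50.5 with vehicle in SW48 (SD, n = 3; log2 change 1.11 ± 0.32, SE, limma adjusted p = 0.0224). The call ended when myricone C replicate 2 was left out (0.98), and the value was 0.63 without vehicle replicate 2. In 23132/87 it was at 149 ± 10.9 with myricone C and 49.8 ± 12.6 with vehicle (log2 change 1.59 ± 0.16, adjusted p = 4.86e-05). CDKN2C, an inhibitor of CDK4 and CDK6, fell by 1.94 in SW48 and by 1.39 in 23132/87. CDKN2B, of the same inhibitor family, rose by 1.20 in 23132/87 and CDKN2D fell by 0.78 there (-0.50 without myricone C replicate 1), and the difference between lines was called for CDKN2B alone (-1.02). CDKN1B, which encodes p27, was at -0.45 ± 0.19 in SW48 (adjusted p = 0.0967) and 0.19 ± 0.10 in 23132/87 (adjusted p = 0.145). Without SW48 vehicle replicate 1 CDKN1B was called in SW48 (-0.65) and for the difference (-0.84), and without SW48 vehicle replicate 2 the difference was called for CDKN1A (-0.96).

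**Figure D4:**
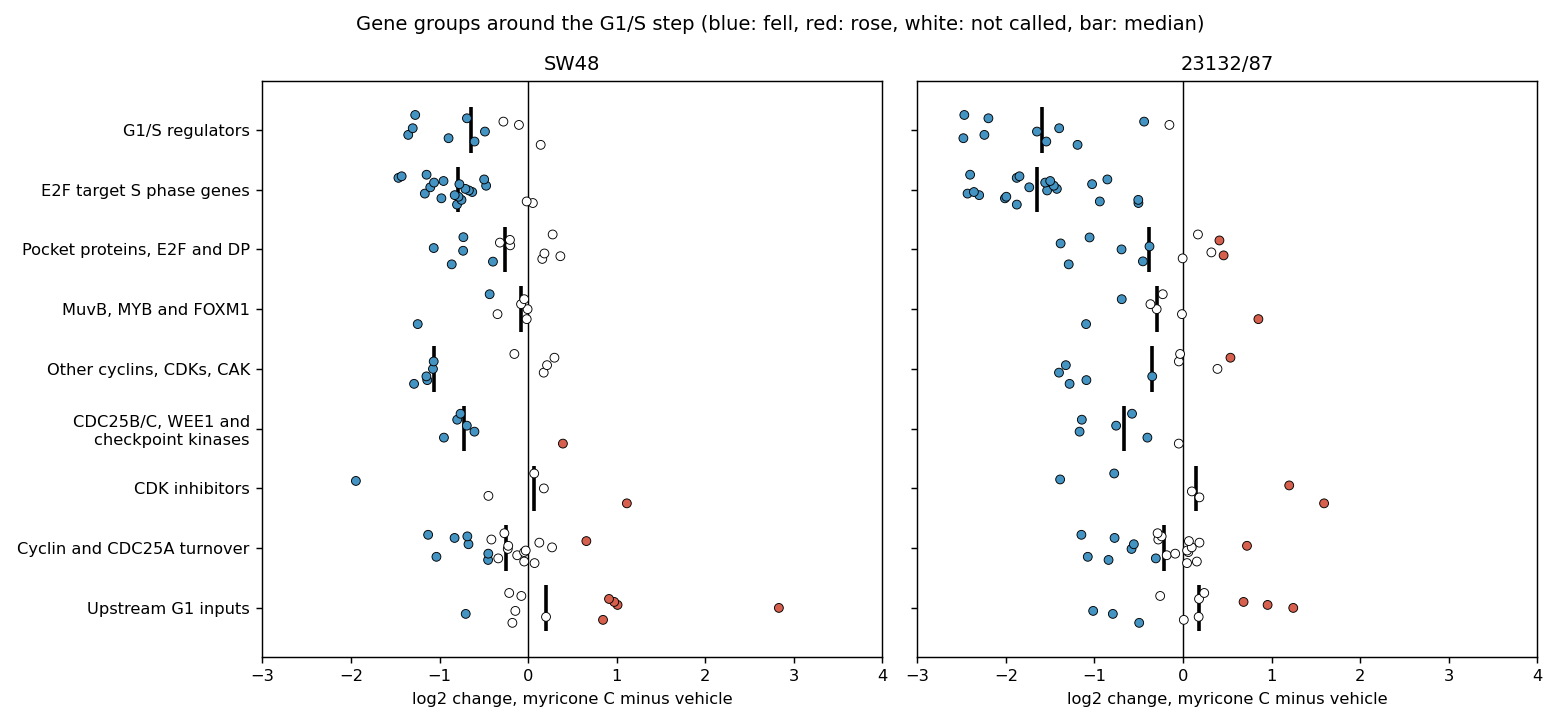
Log2 change (myricone C minus vehicle) of every listed gene of 9 groups, the G1/S regulators first, in SW48 (left) and 23132/87 (right); blue points fell, red points rose, white points were not called, and bars are medians. The medians of the G1/S regulators and of the E2F target S phase genes lie at -0.65 and -0.79 in SW48 and at -1.60 and -1.64 in 23132/87.

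Among partners of MYBL2, FOXM1, which takes over from MYBL2 at mitotic genes, fell by 1.25 in SW48 and by 1.09 in 23132/87 on the log2 scale. The MuvB subunits were mostly not called: in SW48 RBBP4 fell by 0.43, a call that ended on leaving out myricone C replicate 2 (-0.38) or vehicle replicate 3 (-0.41), while in 23132/87 LIN37 rose by 0.85 and the MYBL2 relative MYBL1, at 1.36 with myricone C and 2.82 with vehicle, fell by 0.69 (-0.30 with a pseudocount of 5). In all, 2 of 7 listed genes of this group fell and none rose in SW48, and 2 of 7 fell and 1 rose in 23132/87, with medians of -0.08 and -0.30. These counts lie near the shares over all genes, of which 19.2% fell in SW48 and 23.2% in 23132/87.

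Of the other cyclins, other CDKs and the CDK7 complex, 9 genes were listed in each line. CCNA2, CCNB1, CCNB2, CCNF and CDK1 fell in each line, and CDK7, which activates other CDKs, rose in 23132/87 by 0.54. CCND2, another D-type cyclin, was listed in SW48 alone and was not called there (log2 change 0.18). CDK3 was listed in 23132/87 alone and was not called there. The medians were -1.07 in SW48 and -0.35 in 23132/87, over sets that are not the same. Over the 8 genes listed in both lines the median difference between lines was -0.09, beside -0.09 for all genes tested. The largest falls in SW48 were those of CCNA2, cyclin A2 (-1.29 ± 0.12), and CCNB2, cyclin B2 (-1.15 ± 0.13), and in 23132/87 those of CCNF, cyclin F (-1.40 ± 0.12), and CDK1, the mitotic kinase (-1.32 ± 0.10; SE). CCNB2 was the single gene here with a called difference between lines (-0.80), a deeper fall in SW48. Without SW48 myricone C replicate 1, 5 fell and 1 rose in SW48.

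Of 6 genes for other CDC25 phosphatases, the kinases WEE1 and PKMYT1, and checkpoint kinases, 5 fell and 1 rose in SW48. In 23132/87, 5 fell and none rose. The medians were -0.73 in SW48 and -0.66 in 23132/87. PKMYT1, which phosphorylates CDK1, fell by 0.80 in SW48, a call that ended on leaving out myricone C replicate 2 (-0.66) or vehicle replicate 1 (-0.60), and by 1.14 in 23132/87. CDC25C, a mitotic relative of CDC25A, fell by 0.95 in SW48 and by 0.40 in 23132/87. The 23132/87 call of CDC25C ended on leaving out any library of that line other than myricone C replicate 1 (-0.42 to -0.35). The checkpoint kinase gene CHEK1 fell by 0.61 in SW48 and by 1.17 in 23132/87. The difference between lines was called for CHEK1 (0.56), which was no longer called without SW48 myricone C replicate 1 (0.54) or any of 9 other single libraries.

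Of 20 genes for the turnover of cyclins and CDC25A, 7 fell and 1 rose in each line, with medians of -0.25 in SW48 and -0.21 in 23132/87. Over all genes 19.2% fell and 10.1% rose in SW48, and 23.2% fell and 23.3% rose in 23132/87. SKP2, which marks p27 and cyclin E for degradation, fell by 1.13 in SW48 and by 1.15 in 23132/87 on the log2 scale, and CKS2, which binds CDKs, by 1.04 in SW48 and by 1.07 in 23132/87. The genes that rose were FBXW7, the receptor that marks cyclin E for degradation, by 0.66 in SW48, and FBXO4 by 0.72 in 23132/87, and FBXO4 was the single gene with a called difference between lines (-0.95).

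Of 11 upstream genes with roles in G1, 5 rose and 1 fell in SW48, and 3 rose and 3 fell in 23132/87, with medians of 0.20 and 0.18. MYC, a driver of G1 progression, was at 159 ± 40.2 with myricone C and 77.4 ± 13.8 with vehicle in SW48 (SD, n = 3), a log2 change of 1.01 ± 0.19 (SE, limma adjusted p = 0.00295). In 23132/87 MYC was at 92.3 ± 3.39 with myricone C and 47.1 ± 2.43 with vehicle. The log2 change there was 0.96 ± 0.09 (limma adjusted p = 3.38e-05). The MYC difference between lines was 0.05 ± 0.23 and was not called (limma adjusted p = 0.906). JUN, an AP-1 subunit that can induce CCND1, was at 19.3 ± 12.1 with myricone C and 1.50 ± 0.395 with vehicle in SW48, and at 19.6 ± 6.25 with myricone C and 7.51 ± 1.29 with vehicle in 23132/87 (limma adjusted p = 0.000451 and 0.000746). HSP90AB1, which encodes a chaperone that CDK4 depends on, fell by 1.01 in 23132/87, and the difference between lines had a positive call for HSP90AB1 (0.87) and JUN (1.59). The JUN difference was no longer called when any library other than a myricone C replicate 1 was left out (1.15 to 1.70) or with a pseudocount of 5 (0.82, adjusted p = 0.173), and without SW48 myricone C replicate 1 the number of genes with a positive difference was 4.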

How the data were processed

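The labels' protocols name a TruSeq Stranded mRNA kit. The submitters' processing notes list FastQC, STAR and GRCh38, without a counting tool, strand setting, annotation or unit. For each line the authors deposited 1 table of expression signal per gene. Titles number the SW48 myricone C libraries 1 to 3, and the columns number them 2 to 4. No batch is labelled.

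The deposited signal was transformed as log2(value + 1). Genes averaging at least 1 entered limma 3.58.1 (R 4.3.3), with a mean-variance trend, on the 6 libraries of each line. The line-by-treatment term used all 12 libraries and matched genes by Ensembl identifier. Benjamini-Hochberg adjustment covered all genes of a fit. Changes on this scale are understated for low genes, and fold values are ratios of mean signal. The fits were first tested on simulated data.

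The members and lists were chosen with earlier results of these data known. Every member is described, with the 2 genes of each other list that changed most in each line, and CDKN1A, CDKN1B, RB1 and TFDP1. Some genes with a called difference, and CCNB1, CCND2, CDK3, CDK7, CDKN2D, FBXW7, LIN37 and MYBL1 are also named, a choice made with their values known. For MYBL2, E2F1 and CCNE1 the 3 most alike genes averaging at least 10 are given. Positions and overlaps come from GENCODE release 29. Alternatives covered scaling, trend, filter, pseudocount, blocks and single libraries left out.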

Additional observations from a re-analysis of the deposited data

Results flagged for a closer look

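For 6 members the response differed between the lines by the line-by-treatment term. The SW48 change minus the 23132/87 change, on the log2 scale, was 1.58 for CCNE1, 1.51 for E2F1 and 1.33 for CCND1. It was 1.19 for MYBL2, 1.16 for CDC25A and 0.94 for CCND3. For CCND1 the log2 change was 0.14 in SW48, where it was not called, and -1.19 in 23132/87, and the others fell less in SW48. The CCND3 difference was not called with a block by column-name numbers (0.90). Members were not searched for single outlying values, since each group has 3 libraries.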

How the results depend on the processing

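The count of members that fell was between 4 and 7 in SW48 and between 8 and 9 in 23132/87, and that of positive differences between 5 and 7, over the alternatives run, and no member rose in any of them. The reversed values were uncalled in each case. CDK4 in SW48 was at 0.00038 after quantile normalization, and CCND1 in SW48 ranged from -0.10 to 0.32 with single libraries left out. The difference between lines ranged from -0.048 to 0.28 for CDK2 and from -0.0038 to 0.30 for CDK6 in the same way. Over all genes, the count that rose in 23132/87 was 1658 under the stricter filter, which asked for at least 10 in at least 3 libraries and so tested fewer genes. With single libraries left out, 768 to 1333 genes rose and 1431 to 2323 fell in SW48, and 465 to 828 had a negative difference. With a pseudocount of 5, CCNE1, CCNE2 and CDC25A in 23132/87 were at -1.48, -1.39 and -1.03, and among other low genes E2F8, E2F2 and CDKN2C in SW48 at -0.59, -0.50 and -1.26, and CDKN2C, RBL1, CDKN2B and FBXO4 in 23132/87 at -0.87, -0.88, 0.79 and 0.39, all still called. By the numbers in the titles, deviations of same-numbered libraries correlated at -0.0732, -0.175 and -0.138 in SW48 and at -0.24, 0.112 and -0.27 in 23132/87. These are too few pairs to show or exclude a pairing. By the column names, SW48 has 2 shared numbers, whose libraries correlated at 0.152 and 0.271, also too few pairs to decide. With the replicate block, 354 genes had a positive and 416 a negative difference, and CDC25A in SW48 (-0.49) and CDK6 in 23132/87 (-0.44) were not called. With the block by column numbers, which keeps only libraries whose numbers both SW48 groups share, 4 members fell in SW48, CCND3 (-0.64), E2F1 (-0.61) and CDC25A (-0.45) were no longer called, the CCND3 difference (0.90) was not called either, and the CDK6 difference was -0.014. For the other lists, leaving out SW48 myricone C replicate 1 was an alternative added after seeing the data. In it, 1 gene of the list of other cyclins, other CDKs and the CDK7 complex rose in SW48, and 6 turnover genes fell there. No CDC25 or checkpoint gene and 4 upstream genes had a positive difference in it. The cause of these shifts was not tested. Unknown depth leaves counting error unmeasured, and CCNE1, CCNE2 and CDC25A in treated 23132/87 cells lie close to the lowest listed value.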
